A study of Mus musculus with 17 samples.

Results

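The genes of the synaptic vesicle release machinery were measured in laser-captured mouse dentate gyrus, in which Foxo1, Foxo3 and Foxo4 had been deleted or left in place. The genes were chosen by symbol: synaptotagmins (Syt followed by a number), synapsins (Syn1 to Syn3), Sv2 proteins, Vamp1 to Vamp4, Stx1, Stxbp2 to Stxbp6, the Rab3 and Rims families, complexins, the vesicular glutamate transporters of the Slc17a family, the Unc13 family, and Snap25, Syp, Synpr, Bsn and Pclo. This gave 54 genes, read by 127 probe sets, of 18193 genes and 45037 tested probe sets on the Affymetrix mouse array. A probe set is a group of short DNA probes for 1 transcript, and its brightness cannot be set against that of another, so levels were compared only between arrays and never between genes. Where a gene had several probe sets, the one with the brightest mean over the unmarked arrays stands for it. 37 of the 54 genes had more than 1.

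Neurotransmitter is stored in synaptic vesicles, which dock at the active zone of the axon terminal and fuse with its membrane when calcium enters. Fusion is driven by the SNARE proteins, a vesicle protein of the Vamp family pairing with syntaxin and Snap25 in the plasma membrane. Some synaptotagmins sense calcium, complexins and Stxbp proteins guide the SNAREs, and Rim, Unc13, bassoon and piccolo build and prime the release site. Dentate granule cells send mossy fibres to the CA3 field of the hippocampus, and the pyramidal cells of the CA fields send their axons onward, so the 2 kinds of neuron share this machinery in part and differ in the isoforms they are known to use.

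The samples were 8 KO and 7 WT dentate gyri, and 1 further KO and 1 further WT sample that carry the mark CA13, which the sources used here do not explain. The labels give the genotypes as FOXO 1/3/4 KO and WT and the tissue only as brain, while the study's methods give laser capture of the dentate gyrus, floxed Foxo alleles with a Cre driven by a human GFAP promoter, and a mixed FVB and B6 background. That Cre acts in common progenitors of neurons and glia, so both carry the deletion, and cells of other origin in the captured tissue would not. No age or sex is given for these samples, and none of the labels says whether each sample was a separate animal, so p-values measure the spread between samples, which may be technical. The deposited values are linear intensity signals that the authors had scaled to a common trimmed mean of 500. Levels are given here as log2(signal + 32) after quantile normalization over the 17 arrays. Adding 32 understates the change of dim probe sets, and 9 of the 54 genes had a mean signal under 100 over the granule-profile arrays.

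The labels were checked first. Foxo1 lay between 7.35 and 9.44 (median 7.79) in the 7 KO arrays used below, against 12.33 to 13.95 (median 13.27) in the 7 WT arrays, with a KO minus WT difference of -5.14 on the log2 scale (SE 0.31, limma adjusted p = 4.81e-07) and no overlap. Marker genes were then read in every array. In 15 of the 17 arrays the mean level of 12 dentate granule markers, between 10.81 and 11.04, stood above that of 12 measured CA pyramidal markers, between 7.47 and 8.28, and these are called granule-profile arrays. The KO array labelled 433 without the mark had 8.11 for the granule markers and 9.93 for the CA markers, and the CA13-marked array 437, labelled WT, had 8.05 and 9.90, and these 2 are called CA-profile arrays. The CA13-marked KO array 433 had a granule profile, with 10.86 and 7.62, so the CA13 mark goes with a CA profile in the 437 pair and with a granule profile in the 433 pair, and the unmarked 433 array alone of the unmarked arrays had no granule profile. Whether the 2 arrays of 433 were exchanged was not tested. Foxo1 was at 8.52 in the library labelled 433 and at 9.82 in the CA13-marked array 437, which is labelled WT but lay below every one of the 7 WT arrays and near the highest KO array. Foxo1 therefore does not settle the genotype of either CA-profile array, and both are called by their labels only. Because of its profile the library labelled 433 was left out of the KO group, leaving 7 KO and 7 WT arrays, and the main KO and WT counts are also given with it.

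The CA-profile arrays differed from the granule-profile arrays in 21 of the 54 release genes. In 14 of them both CA-profile arrays lay above every one of the 15 granule-profile arrays, among them Sv2b, Syt4, Rims2, Stx1a and Pclo. Over all genes 6.87% did so. In 7 members, Stxbp6, Stxbp3, Synpr, Syt17, Stxbp5, Cplx2 and Syt7, both CA-profile arrays lay below every granule-profile array, against 5.27% over all genes. Counting only members whose CA-profile arrays both stood at least 2-fold from the granule-profile median, 2 were above, Sv2b and Syt4, against 2.17% over all genes, and 4 were below, Stxbp6, Stxbp3, Synpr and Syt17, against 2.09%. The arrays were sorted by marker genes that are not among the 54, the CA profile rests on 2 arrays of which 1 is labelled KO and 1 WT, and no test was made. With median scaling in place of quantile normalization 7 members lay above, against 5.08% over all genes, and 6 below, against 5.43%. The 7 that stayed above were Sv2b, Syt4, Rims2, Pclo, Rab3b, Syn2 and Syt1, and the 1 that no longer lay below was Stxbp5. Both CA-profile arrays belong to the larger of 2 array series. Against the granule-profile arrays of that series alone 16 lay above and 8 below. Those arrays are part of the 15, so the 14 and the 7 had to be included, and this count cannot test the series.

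**Figure D1:**
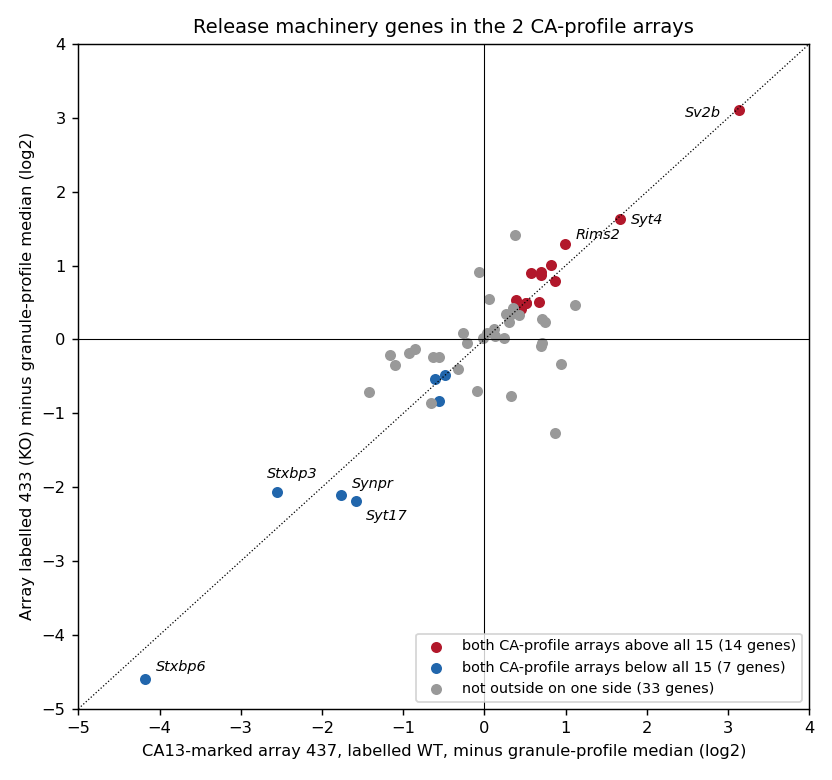
Difference of each CA-profile array from the median of the 15 granule-profile arrays on the log2 scale, for the 54 genes, with the CA13-marked array 437 (labelled WT) on the horizontal axis and the KO array labelled 433 on the vertical axis, and a dotted line of equality. Stxbp6 stands at the lower left with -4.18 and -4.59, Sv2b at the upper right with 3.14 and 3.10, and 33 genes in grey did not lie outside the granule-profile range on 1 side in both arrays.

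Stxbp6, or amisyn, carries a SNARE-like domain and binds syntaxin. It was the member that differed most. Its level was 8.97 in the KO array labelled 433 and 9.38 in the CA13-marked array 437 (labelled WT), against 13.26 to 13.75 (median 13.56) in the 15 granule-profile arrays. The granule-profile arrays thus lay within a narrow band and the CA-profile arrays far under it. A second probe set of the gene also lay below all of them, at -3.60 from their median in the array labelled 433 and -2.42 in the CA13-marked array 437. Sv2b, a vesicle membrane glycoprotein of the Sv2 family, had the opposite pattern. It was at 11.92 in the array labelled 433 and 11.96 in the CA13-marked array 437, against 7.52 to 9.65 (median 8.82) in granule-profile arrays. Its second probe set was 2.12 and 2.14 above the granule-profile median in the same 2 arrays. Between arrays of the same number the gaps were as wide. The CA13-marked minus the unmarked 437 array, both labelled WT, was -4.23 for Stxbp6 and 3.79 for Sv2b, and the unmarked minus the CA13-marked 433 array, both labelled KO, was -4.54 and 3.54. Synpr, synaptoporin, a vesicle protein related to synaptophysin that is known from mossy fibre terminals, was at 10.81 and 11.15 in the CA-profile arrays labelled 433 and 437, against 11.52 to 13.43 (median 12.91) in granule-profile arrays. The lowest granule-profile array was the WT sample 392, and the SD among the 15 was 0.51.

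The sequences before the annotated start of these 3 genes are shown because they are among the members whose levels stood at least 2-fold apart between the profiles. Each line gives 250 bases upstream of the start, 5' to 3' on the gene's strand, from RefSeq on GRCm38.p6, with CG dinucleotides in capitals. Stxbp6 lies on the minus strand at chr12:45074484-45074733. Sv2b has 4 annotated starts and Synpr has 2, and those shown are at chr7:75309263-75309512 on the minus strand and chr14:13284530-13284779 on the plus strand.
Stxbp6: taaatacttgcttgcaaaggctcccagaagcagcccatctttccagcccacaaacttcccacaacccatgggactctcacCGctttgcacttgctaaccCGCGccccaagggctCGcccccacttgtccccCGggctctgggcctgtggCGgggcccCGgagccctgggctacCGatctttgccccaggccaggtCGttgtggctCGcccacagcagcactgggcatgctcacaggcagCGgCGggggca
Sv2b: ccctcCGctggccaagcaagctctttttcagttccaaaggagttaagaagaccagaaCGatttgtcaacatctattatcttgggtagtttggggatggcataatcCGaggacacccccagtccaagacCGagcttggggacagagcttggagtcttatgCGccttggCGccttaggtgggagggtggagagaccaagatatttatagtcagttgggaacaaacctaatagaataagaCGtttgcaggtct
Synpr: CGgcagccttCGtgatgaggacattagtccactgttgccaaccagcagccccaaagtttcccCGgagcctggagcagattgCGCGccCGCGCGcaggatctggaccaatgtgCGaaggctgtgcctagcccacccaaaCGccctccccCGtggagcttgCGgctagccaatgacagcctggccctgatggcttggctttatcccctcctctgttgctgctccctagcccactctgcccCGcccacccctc
The Stxbp6 stretch holds 12 CG dinucleotides, that of Sv2b 7 and that of Synpr 13. The other 3 starts of Sv2b hold 8, 2 and 0, and the second start of Synpr holds 1. Of the 54 genes 41 had an entry, with 55 starts in all. Their median was 13 CG dinucleotides in 250 bases, against a median of 6 over all 32851 starts of the table. The median was 8 over the 17 starts of members above in the CA-profile arrays, 12.5 over the 6 starts of members below and 15 over the 32 starts of the other members. The FOXO core motif GTAAACA, searched on both strands, was in 0 of the 55 stretches of members and in 3.17% of all stretches of the same length. The cyclic AMP response element TGACGTCA, a palindrome, was in 2 of the 55, those of Stxbp3 and Syn1, and in 1.55% of all. Stxbp3, at chr3:108840503-108840752 on the minus strand, is shown with that element in capitals, which begins 108 bases before the start.
Stxbp3: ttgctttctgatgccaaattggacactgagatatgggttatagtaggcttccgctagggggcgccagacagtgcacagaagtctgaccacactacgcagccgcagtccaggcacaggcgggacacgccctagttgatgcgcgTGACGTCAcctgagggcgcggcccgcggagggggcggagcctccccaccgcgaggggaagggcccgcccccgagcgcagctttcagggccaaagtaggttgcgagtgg
These matches are a description of the letters and not of binding.

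Among the SNARE regulators, Stxbp3, a Munc18 protein known from exocytosis outside nerve terminals, was at 6.60 in the array labelled 433 and 6.12 in the CA13-marked array 437, against 7.66 to 9.58 (median 8.67) in granule-profile arrays. Its second probe set was at -0.53 and -0.61 from the granule-profile median and within the granule-profile range, so its probe sets disagree in size. Stxbp5, tomosyn, which competes with Vamp2 for syntaxin, was at 9.93 and 10.21 in the CA-profile arrays 433 and 437, against 10.23 to 11.02 (median 10.77) in granule-profile arrays, and its 2 further probe sets lay within the range. Cplx2, a complexin that clamps and promotes SNARE fusion, was at 11.76 and 11.68 in those arrays, against 12.08 to 13.01 (median 12.30). Its probe set may share probes with other transcripts, and its 2 further probe sets stayed within the granule-profile range. Stx1a, the syntaxin of the plasma membrane SNARE, had 14.45 and 14.25 in the 2 CA-profile arrays, against 12.79 to 14.22 (median 13.43). Here too the probe set may share probes, and the second one lay within the range. Vamp1 (10.23 in 433 and 10.25 in CA13-marked 437, granule-profile median 9.73), Vamp2 (10.36 and 10.05, median 9.47) and Vamp4 (12.72 and 12.77, median 12.31), vesicle SNAREs of synaptic and endosomal membranes, all lay above every granule-profile array, but none of the 3 did so with median scaling. Snap25, the partner SNARE, was at 13.67 and 13.64, inside the granule-profile range of 12.50 to 14.11.

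Synaptotagmins went both ways. Syt4, a synaptotagmin known for weak calcium sensing beside Syt1, was at 10.51 in the array labelled 433 and 10.55 in the CA13-marked array 437, against 7.45 to 9.52 (median 8.88) in granule-profile arrays. Its second probe set was 1.55 and 1.69 above the granule-profile median. Syt1, the sensor of fast release, was at 13.52 and 13.53, against 12.60 to 13.26 (median 13.02), a smaller step beyond a narrow range. Of its 3 further probe sets none lay outside the range on 1 side. Syt17 ran the other way, with 9.13 in 433 and 9.74 in CA13-marked 437, against 10.77 to 11.64 (median 11.33). Its second probe set was at -1.95 and -1.85 from the median and below every granule-profile array. Syt7, a slow high-affinity sensor known for asynchronous release and facilitation, had 13.82 in both CA-profile arrays, against 14.01 to 14.51 (median 14.31). Its 3 further probe sets lay within the range, and averaging the 4 turned the smaller of its 2 distances to 0.09. Syt11, on a probe set that may share probes, was at 14.69 in 433 and 14.61 in CA13-marked 437, against 13.49 to 14.68 in granule-profile arrays. Only the first lay above the range, and the gene was not counted.

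Active zone and vesicle tethering proteins come next. Pclo, the scaffold piccolo, was at 13.25 in the array labelled 433 and 13.34 in the CA13-marked array 437, against 11.63 to 13.06 (median 12.46) in granule-profile arrays, and its second probe set also lay above all of them. Rims2, a Rim scaffold that binds Rab3 and Unc13, was at 11.08 and 10.78, against 8.59 to 10.40 (median 9.79). Its next probe set by brightness was 0.05 above the median in both arrays, so the step rests on 1 of its 5 probe sets. Rims1 was at 11.75 and 11.60, against 10.81 to 11.42 (median 11.21). Unc13b, a priming factor of the Munc13 family, was at 11.06 and 10.84, against 9.57 to 10.77 (median 10.15), while its dim second probe set was at -0.65 and -0.63 from the median. Rab3b and Rab3c, vesicle GTPases, stood at 7.92 and 9.36 in 433 and at 7.75 and 9.52 in CA13-marked 437, against granule-profile medians of 7.06 and 8.85, and Rab3b is 1 of the 9 dim genes. Syn2, a synapsin that holds vesicles in the reserve pool, was at 13.80 and 13.83, against 12.49 to 13.62 (median 13.41). Of these 7 genes Rims1, Unc13b and Rab3c no longer lay above with median scaling.

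**Figure D2:**
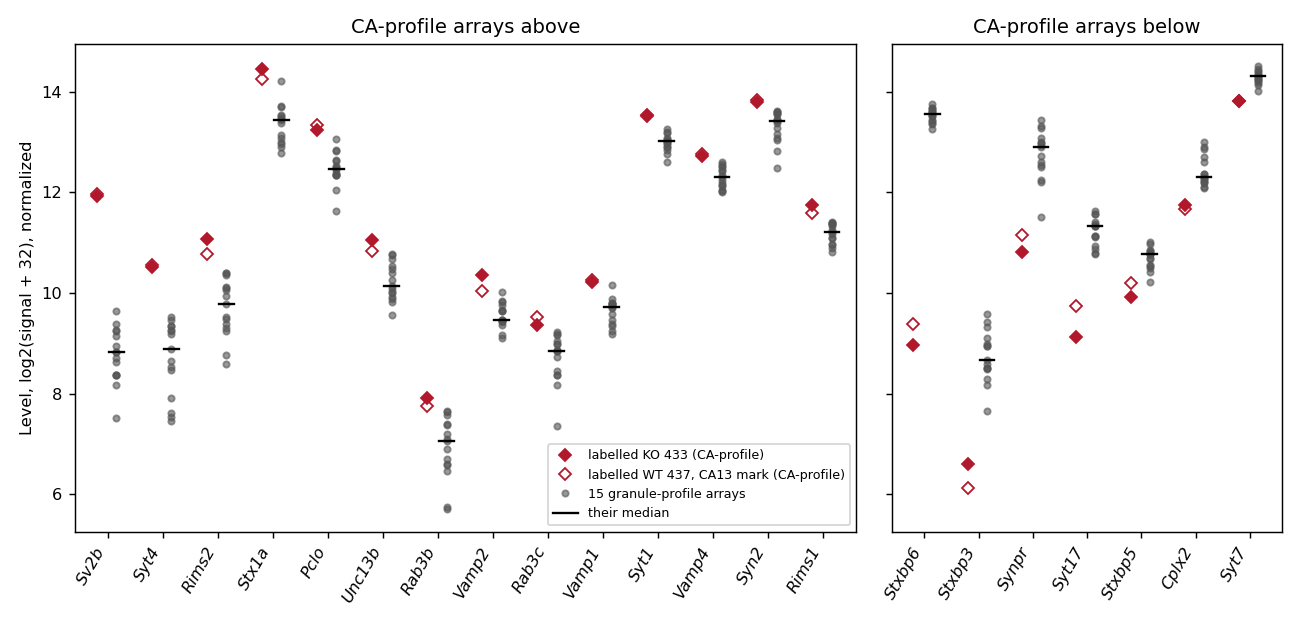
Level, log2(signal + 32) after normalization, of the 21 members whose 2 CA-profile arrays lay outside the range of the 15 granule-profile arrays on 1 side. Red diamonds are the KO array labelled 433 (filled) and the CA13-marked array 437, labelled WT (open), grey points the granule-profile arrays and black lines their median, and Stxbp6 and Sv2b show the widest gaps.

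Slc17a7 and Slc17a6, the vesicular glutamate transporters measured, did not separate the profiles. Slc17a8 was not among the release genes measured. Slc17a7 was at 9.08 in the array labelled 433 and 8.05 in the CA13-marked array 437, against 6.56 to 9.08 (median 7.67) in granule-profile arrays, and Slc17a6 at 7.29 and 7.51, against 5.32 to 9.42 (median 7.27). Slc17a6 spread over more than 4 log2 units among arrays of 1 profile, so a difference of the size seen for Syn2 could not have been read from it. For Slc17a7 the SD over the granule-profile arrays was 0.58, and the highest of them was the WT sample 392. Syp, synaptophysin, was at 8.66 and 8.74, against 7.80 to 8.95 (median 8.61), and Bsn, bassoon, at 9.55 and 10.20, against 8.64 to 9.67 (median 9.08). Markers of GABA neurons, 9 of 9 measured, were also read. Cck, Pvalb, Sst and Vip, 4 of the 9, lay above every granule-profile array in both CA-profile arrays, where 6.87% of all genes did, 0 lay below, where 5.27% did, and Gad1 and Gad2, the enzymes that make GABA, and 3 others were not outside the range on 1 side. The mean level of the 9 was 10.08 in 433 and 10.06 in CA13-marked 437, against 9.11 to 9.74 in the 7 KO and 7 WT arrays, and the part of such cells in the values above was not tested. In bulk tissue fewer cells of a type and less RNA per cell cannot be told apart.

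The list of other presynaptic genes held 65 measured genes. They cover SNARE partners and disassembly, vesicle membrane, active zone, endocytosis, adhesion and calcium entry. Of these 11 lay above, where 6.87% of all genes lay, and 7 below, where 5.27% lay. With median scaling these were 8 above, against 5.08%, and 4 below, against 5.43%. Cacna1b, the pore of the N-type calcium channel, was at 11.77 in both CA-profile arrays, against 10.33 to 11.52 (median 10.59) in granule-profile arrays. Nrxn3, a presynaptic adhesion molecule, was at 11.58 and 11.70, against 9.66 to 10.76 (median 10.40). Both stood at least 2-fold above the median, and Sh3gl1, an endophilin, stood at least 2-fold below, with 8.06 and 7.78 against 8.34 to 10.12 (median 9.09).

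KO was then compared with WT among the 7 and 7 granule-profile arrays, the question being whether loss of FOXO changes the release genes in dentate granule tissue. No release gene passed the test in either direction. With limma, 0 of 54 had an adjusted p under 0.05, where 0.0165% of all genes did, and the smallest adjusted p was 1.0. The count was also 0 with the methods' t-test after adjustment. With SAM it was 0 too, but a SAM call also needed a 2-fold difference. No member reached that size, so the SAM count could not have been otherwise. At an unadjusted p under 0.05, 1 was higher in KO, Stxbp5, where 1.79% of all genes were, and 1 was lower, Syn3, where 1.76% were, which is near the background. With median scaling 0 of 54 had an unadjusted p under 0.05. In 0 of the 54 were the KO and WT arrays free of overlap, against 0.0715% of all genes. KO minus WT differences lay between -0.63 and 0.36 on the log2 scale with a median of 0.03, beside a median of 0.01 over all genes, and 24 were negative and 30 positive. With the library labelled 433 kept in the KO group, 0 were called, against 0.011%, 0 were higher at an unadjusted p under 0.05, against 1.53%, and 2, Syn3 and Unc13c, were lower, against 1.52%. With it 0 of the 54 were free of overlap, against 0.022%, and 23 differences were negative. That library has a CA profile, and both CA-profile arrays, 433 and 437, lay below the granule-profile median for Syn3 (-0.70 and -0.09) and Unc13c (-0.86 and -0.65). With the granule-profile CA13-marked KO array 433 in its place, 3 of 54 had an unadjusted limma p under 0.05, Stxbp5, Syn3 and Unc13c. The share over all genes is not given for that fit.

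**Figure D3:**
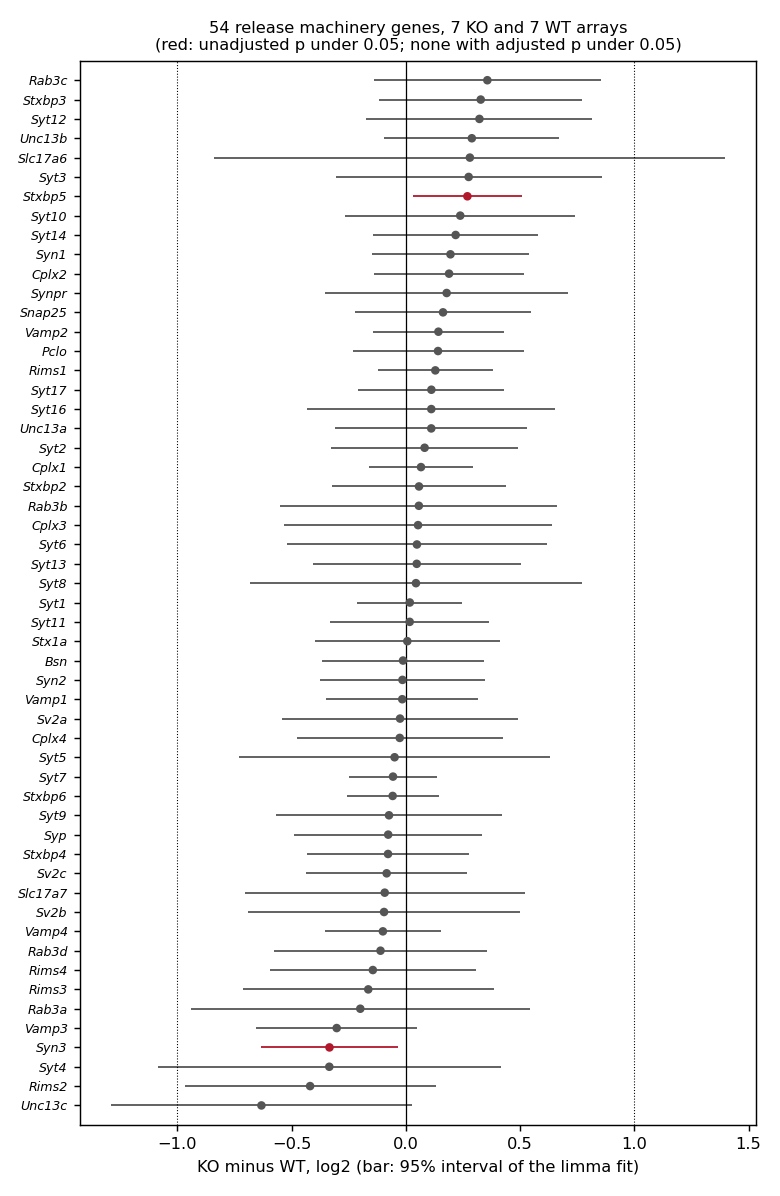
KO minus WT difference on the log2 scale with its 95% interval from limma for each of the 54 genes, ordered by the difference, over 7 KO and 7 WT arrays. Red marks Stxbp5 and Syn3, the 2 genes with an unadjusted p under 0.05, and dotted lines mark a 2-fold difference, which the interval crosses for Slc17a6, Syt4 and Unc13c.

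The size of change that these arrays leave room for can be read from the intervals. For 51 of the 54 genes the 95% interval lay within a 2-fold difference either way, as it did for 95.1% of all genes, and the median interval reached 0.42 log2 units to each side. With the library labelled 433 it was 50 of the 54, and 17282 of all 18193 genes. The narrowest were those of bright probe sets. Syt7 was at 14.27 ± 0.17 in KO and 14.32 ± 0.09 in WT (SD, n = 7 each), an interval of -0.25 to 0.14 for the difference. Stxbp6, the gene with the widest gap between profiles, was at 13.50 ± 0.15 in KO and 13.56 ± 0.14 in WT, an interval of -0.26 to 0.14. Cplx1 was at 14.65 ± 0.14 in KO and 14.58 ± 0.22 in WT (interval -0.16 to 0.29), and Syt1 between 12.60 and 13.20 in KO and between 12.77 and 13.26 in WT (interval -0.21 to 0.25). Snap25 was at 13.57 ± 0.32 in KO and 13.41 ± 0.42 in WT (interval -0.22 to 0.55), and Stx1a at 13.33 ± 0.28 and 13.33 ± 0.48 (interval -0.40 to 0.41). Syn2 had 13.31 ± 0.30 in KO and 13.32 ± 0.38 in WT (interval -0.38 to 0.35). Synpr had 12.86 ± 0.44 in KO and 12.68 ± 0.61 in WT (interval -0.35 to 0.71), and Syt11 14.31 ± 0.26 and 14.29 ± 0.39 (interval -0.33 to 0.36). Rab3a, at 14.32 ± 0.82 in KO and 14.51 ± 0.70 in WT, had a wider interval of -0.94 to 0.54, on a probe set that may share probes, and its second probe set differed by -0.01.

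Stxbp5 was between 10.53 and 11.02 (median 10.81) in KO, against 10.23 to 10.77 (median 10.56) in WT. Of the KO arrays 5 lay above the highest WT array, the KO sample MS15 was level with it at 10.77 and the KO sample 390 lay among the WT arrays. The difference was 0.27 (SE 0.11, exact two-sided permutation p = 0.014 over 3432 splits, limma adjusted p = 1.0). Its 2 further probe sets differed by 0.32 and 0.19. The unadjusted p rose above 0.05 when the KO sample 386 or 391 or the WT sample 392 or 393 was left out, with differences of 0.22 to 0.32 over all 14 samples left out in turn. The library labelled 433 was at 9.93, below all 14, and with it the difference was 0.16. Within the larger array series the difference was 0.20 and within the smaller 0.45, and with the series as a block 0.27 (unadjusted p = 0.015, adjusted p = 1.0).

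Syn3, a further synapsin, was read by a probe set that may share probes with other transcripts. It averaged 10.08 ± 0.05 in KO and 10.42 ± 0.35 in WT (SD, n = 7 each). Its median was 10.06 and its highest array 10.17 in KO, against a median of 10.48 and a highest array of 10.98 in WT. The 7 fitted KO arrays formed a tight group at the low end of the WT range. The difference was -0.33 (SE 0.14, exact two-sided permutation p = 0.033, limma adjusted p = 1.0), and its 2 further probe sets differed by -0.49 and -0.32. Its unadjusted p rose above 0.05 when the WT sample 206, 41 or 437 was left out, with differences of -0.40 to -0.24 over all 14. Within the larger array series it was -0.46, within the smaller -0.01 and with the series as a block -0.33 (unadjusted p = 0.021, adjusted p = 1.0). In the library labelled 433 Syn3 was at 9.43, below every other array, and with it the difference was -0.42. In the CA13-marked KO array 433, of granule profile and not in the fit, Syn3 was at 10.41, above all 7 fitted KO arrays. The CA-profile minus the granule-profile array was -0.97 in the 433 pair and -0.93 in the 437 pair.

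Unc13c, a Munc13 priming factor, had the largest difference in size. It lay between 7.42 and 8.91 (median 8.02) in KO, against 7.34 to 9.52 (median 8.88) in WT. Its WT sample 392 lay below every KO array, and with that sample the whole KO range lay inside the WT range. The next lowest WT array, sample 206, was at 8.31. The difference was -0.63 (SE 0.31, exact two-sided permutation p = 0.097, limma adjusted p = 1.0). A second probe set differed by -0.59 and the dimmest, at a mean signal of 6.25, by 0.15. Within the larger series the difference was -0.62, within the smaller -0.65 and with the series as a block -0.63 (unadjusted p = 0.022, adjusted p = 1.0). Without the WT sample 392 it was -0.86.

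**Figure D4:**
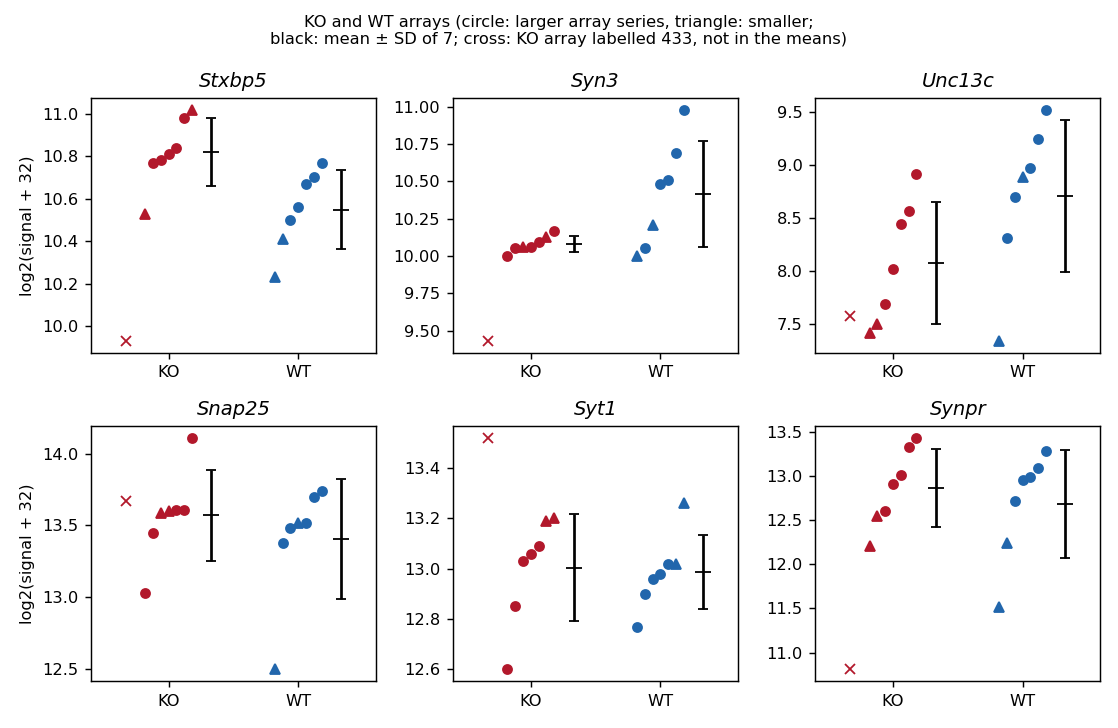
Levels of 6 members in each KO array (red, left) and WT array (blue, right), as log2(signal + 32), with the mean ± SD of 7 arrays in black, circles for the larger and triangles for the smaller array series, and a cross for the library labelled 433. The KO and WT arrays overlap in all 6, and the lowest triangle of Snap25, Synpr and Unc13c in WT is sample 392.

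The members named next had the smallest p after these within each direction, and none had an unadjusted p under 0.05. Rab3c (0.36, SE 0.24), Stxbp3 (0.33, SE 0.21), Syt12 (0.32, SE 0.23), Unc13b (0.29, SE 0.18) and Syt14 (0.22, SE 0.17) had positive differences. Rims2 (-0.42, SE 0.26), Syt4 (-0.34, SE 0.35), Vamp3 (-0.30, SE 0.17) and Vamp4 (-0.10, SE 0.12) had negative ones. Single samples moved several of these values by more than 1.5 times. Without the WT sample 392 Rab3c was at 0.16 and Syt12 at 0.20, and Syt4 was at -0.17 without the KO sample 390 and -0.54 without the WT sample 392. Rims2 was at -0.28 without the KO sample MS15, Syt14 at 0.14 without the KO sample 384 and Vamp3 at -0.20 without the WT sample 206, while Vamp4 ranged between -0.16 and -0.06. The probe set of Vamp3 may share probes with other transcripts. Probe sets of 1 gene did not always run the same way. The brightest of Bsn differed by -0.01, its second by 0.22, and its dimmest, at a mean signal of 47.3, by -0.90 at an unadjusted p of 0.003, 1 of 4 member probe sets of 127 with an unadjusted p under 0.05, where 3.5% of all probe sets had one. The others were that of Stxbp5 and 2 of Syn3, and 0 of the 127 passed after adjustment. With the library labelled 433 the 4 were 7, against 3.22%. Slc17a6 was at 7.56 ± 0.88 in KO and 7.29 ± 1.35 in WT, Slc17a7 at 7.62 ± 0.26 and 7.71 ± 0.79, Syp at 8.37 ± 0.31 and 8.45 ± 0.41, and Pclo at 12.54 ± 0.30 in KO and 12.40 ± 0.40 in WT (SD, n = 7 each).

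The 65 other presynaptic genes gave 0 calls too. At an unadjusted p under 0.05, 2 were higher in KO, Scamp1 (0.38, SE 0.17) and Syngr3 (0.26, SE 0.12), both vesicle membrane proteins, where 1.79% of all genes were. 2 were lower, where 1.76% were, Lin7a (-0.26, SE 0.11), a scaffold, and Cadps2 (-0.29, SE 0.13), a priming factor of dense-core vesicles. The probe set of Scamp1 may share probes with other transcripts. With the library labelled 433, Scamp1 alone was higher, against 1.53%, and 0 were lower, against 1.52%. Their median difference was 0.07. Markers of oligodendrocytes, 7 of 8 measured, had a median difference of 0.24 between KO and WT and means of 9.74 to 10.81 in KO, against 9.37 to 10.38 in WT, and those of newborn neurons, 6 of 6 measured, a median difference of -0.25, with means of 8.24 to 9.13 in KO, against 8.26 to 9.69 in WT. 0 of the markers were called. At an unadjusted p under 0.05 were 3 of 7 oligodendrocyte, 1 of 6 newborn neuron, 2 of 12 granule and 2 of 12 CA markers. Of the GABA neuron, astrocyte, microglia and endothelial markers 0 were. Over all genes 1.79% were higher and 1.76% lower at that threshold. The part of the markers in the release gene values was not tested.

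The array series, read from numbers in the sample labels and otherwise not explained, left 6 of the 54 members free of overlap. Genotype left 0, where 0.0715% of all genes were free of overlap. Arrays were split 4 against 10 by series and 7 against 7 by genotype, so the counts are not on a like footing. The smaller series holds 2 KO and 2 WT arrays and the larger 10 of the 14 fitted. In 5 members every array of the smaller series lay below every fitted array of the larger, where 2.47% of all genes did: Sv2a, Synpr, Syt16, Syt4 and Vamp1. In 1, Syt13, every array of the smaller series lay above, where 3.81% did. Syt4 was at 7.45 and 7.53 in KO and 7.61 and 7.91 in WT in the smaller series, against 8.48 to 9.25 in KO and 8.65 to 9.52 in WT in the larger. The KO minus WT difference of Syt4 was -0.36 within the larger series, -0.27 within the smaller and -0.34 with the series as a block (unadjusted p = 0.056, adjusted p = 1.0). Synpr was between 11.52 and 12.54 in the smaller series, against 12.60 to 13.43 in the larger, and Syt13 between 11.91 and 12.86, against 11.37 to 11.81. What the series numbers stand for was not tested. Both KO and WT arrays are in each series, so the split does not lie along genotype.

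**Figure D5:**
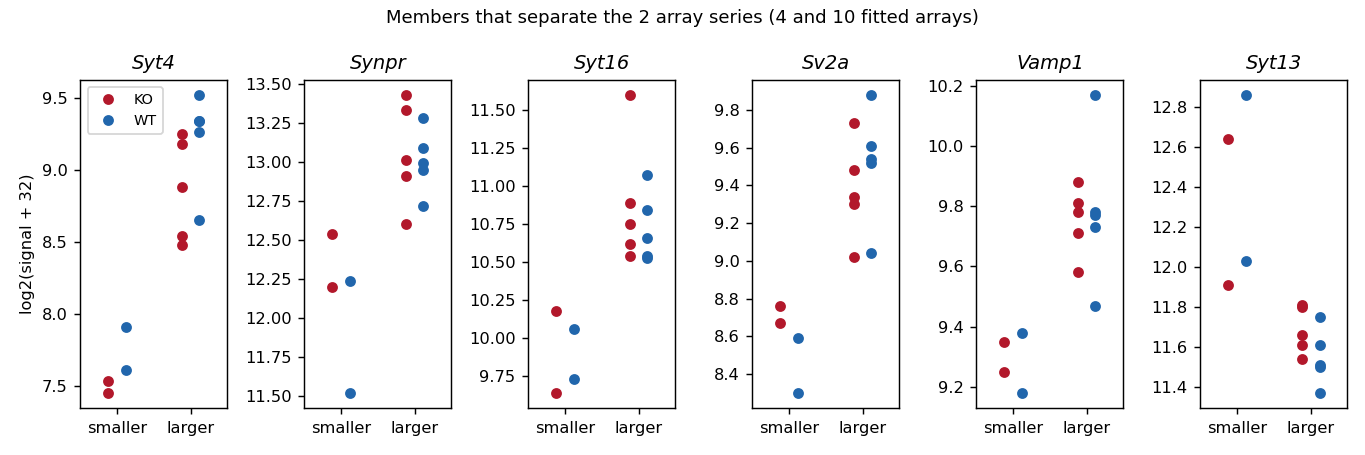
Levels, log2(signal + 32), of the 6 members whose arrays of the smaller series (left, 4 arrays) and of the larger series (right, 10 fitted arrays) do not overlap, with KO in red and WT in blue. KO and WT lie together within each series, and Syt13 alone is higher in the smaller one.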

How the data were processed

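RNA of 17 samples was read on Affymetrix MOE430 2.0 arrays. The values that the authors deposited are signal intensities of whole probe sets, not logged. MAS5 is named in the submitters' processing notes, whereas the methods of the study describe RMA and then SAM. Every array had been scaled to a 2% trimmed mean of 500. The highest Pearson r between 2 columns was 0.9911 and 0 columns were identical. All columns were used, the median signal per array lay between 88.1 and 123.0, and the number of arrays limits the precision. The Gapdh 3' to 5' log2 ratio was 5.04 to 6.41 in KO, 5.11 to 6.23 in WT and 5.85 to 5.92 in the 2 CA-profile arrays. The 3' end of Gapdh thus read far above its 5' end in every array. The part of this in the disagreements between probe sets of 1 gene was not tested.

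The 64 control probe sets were left out and 45037 were fitted with limma 3.58.1 in R 4.3.3 (eBayes with an intensity trend, genotype the only term, Benjamini-Hochberg adjustment, calls at an adjusted p under 0.05), which took the place of the study's SAM. 34945 probe sets carry 1 symbol in the platform annotation, and all 54 members were found by Entrez ID in a RefSeq table with 0 symbols changed. The genome build used to design the probes is not stated in any source used here. CA-profile levels were not tested. Single members also had an exact permutation test, whose smallest possible p is 0.00058. Members named with values were those called or, up to 6 per direction, with the smallest p, up to 10 per direction outside the granule-profile range, the 10 brightest, the glutamate transporters, Syp, Synpr, Snap25, Bsn and Pclo, and those whose probe sets disagree. The members, lists and alternatives were chosen with earlier results of these data known. The fit was tested on simulated data. Alternatives covered the samples, array series, scaling, pseudocount (1 and 128), a filter on mean signals under 100, RNA quality, variance trend, array weights, SAM, the methods' t-test, the mean over probe sets and leaving out each sample.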

Additional observations from a re-analysis of the deposited data

Results flagged for a closer look

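In 5 of the 66 groups of 7 arrays checked over the 33 named members, 1 sample stood apart by Dixon's ratio, and chance gives about 1 in 20. 4 of the 5 concern the WT sample 392. Its level was 12.90 for Cplx2, the highest in WT, with the next sample at 12.37. It was the lowest in WT for Pclo at 11.63 (next sample 12.34), for Snap25 at 12.50 (next 13.38) and for Syn2 at 12.49 (next 13.28). The WT sample 41 was the lowest in WT for Syt11 at 13.49 (next 14.19). Sample 392 belongs to the smaller array series, and its Gapdh 3' to 5' log2 ratio of 5.11 was the lowest in WT. The part of either in these values was not tested.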

How the results depend on the processing

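The count of members called was 0 in all 17 settings beside the leave-one-out fits and in all 14 of those. For SAM it was bound to be 0, since its calls also needed a 2-fold difference, which no member reached. The median difference moved by less than 0.0832, the SD of the median member over arrays, in each of these settings and fits. None of the 12 members with the smallest p within each direction, 6 higher and 6 lower, changed direction. Members with an unadjusted p under 0.05, 2 in the fit reported, were 0 with median scaling and 5 with array weights, and 1 to 4 with 1 sample left out. Over all probe sets 6 were called, and 2 within the larger array series, 0 within the smaller, 11 with array weights and 3 to 7 with 1 sample left out. Fewer samples enter the fits within a series, and otherwise the cause was not tested. Members with both CA-profile arrays above every granule-profile array, 14 in the setting reported, were 7 with median scaling. Averaging all probe sets of a gene turned the smaller CA-profile distance of Syt7 to 0.0897 and of Unc13b to -0.0572 on the log2 scale, since their further probe sets ran otherwise. Keeping the library labelled 433 together with the series as a block, and comparing profiles within the larger series alone, were added after seeing the data. No paired analysis was possible because the labels give KO and WT samples no shared replicate numbers. Dim probe sets limit what can be read, and 46 of the 54 members remained with a filter on mean signals under 100.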
